A study of Arabidopsis thaliana with 4 samples.

Results

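BUB3.1, HTB1 and UBC19 are 3 nuclear genes of Arabidopsis thaliana that are grouped here as cell division and core histone genes. They were taken by name from the platform's probe annotation, in which each has 1 probe set of its own, and they are 3 of the 13286 genes that such single-gene probe sets name. Whole-seedling RNA had been hybridised to 4 Affymetrix arrays in 1 colour, 2 for wild type (WT) and 2 for the mutant ced1. Both genotypes are in the ecotype given as gl1-Col0, so the controls share that background with the mutant. All seedlings grew on agar in continuous light, were 16 days old, and had spent 6 h on plates with 40% polyethylene glycol (PEG), a polymer that lowers water availability. The mutant stands for 1 line, known from its study for weak stress induction of the abscisic acid synthesis gene NCED3. The comparison asks how the mutant's transcript levels under osmotic stress depart from those of WT. Untreated seedlings were not analysed here, so a difference that already existed before PEG cannot be told apart from a changed response to it.

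BUB3 proteins are WD40-repeat proteins of the spindle assembly checkpoint, which holds a cell in mitosis until its chromosomes are attached to the spindle. The checkpoint acts on the anaphase-promoting complex (APC/C), a ubiquitin ligase that marks mitotic cyclins for destruction. UBC19 and its close relative UBC20 are Arabidopsis members of the E2-C class of ubiquitin-conjugating enzymes. In animals and fission yeast, enzymes of this class work with the APC/C. HTB1 codes for histone H2B, which pairs with H2A in the nucleosome, and plants make most canonical core histones while DNA is copied in S phase. In seedlings these processes are concentrated in the meristems and the youngest organs.

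After PEG, BUB3.1 and HTB1 were higher in ced1 than in WT and UBC19 was lower. BUB3.1 was 2.28-fold higher and HTB1 1.97-fold higher, while UBC19 was 1.52-fold lower. Differences are given on the scale of log2(signal + 16), as ced1 minus WT, with standard errors and p-values from limma, adjusted by Benjamini-Hochberg over all 13648 tested probe sets. A probe set is called here when its adjusted p is under 0.05. All 3 genes passed the filter on low signals, and their signals lay above its level of 102.7 on each of the 4 arrays. Of all tested probe sets, 23.2% were called higher in ced1 and 19.2% lower, or 42.4% in either direction, so calls were common, and little is read from 3 calls among 3 genes that were chosen with earlier results known. With the array medians made equal, the calls over all tested probe sets went from 3161 higher and 2626 lower to 2154 and 3452, and the median of all differences moved by -0.18 from 0.07. BUB3.1, HTB1 and UBC19 kept both their direction and their call with that scaling.

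BUB3.1 (AT3G19590, chromosome 3) gave signals of 185.2 and 222.8 in WT, whereas ced1 gave 468.8 and 497.9. Both ced1 arrays were above both WT arrays. Such a separation of the genotypes, in one direction or the other, was seen in 74.7% of tested probe sets. The means were 204 ± 26.6 (SD, n = 2) in WT and 483.4 ± 20.6 in ced1. The log2 difference was 1.19 ± 0.17 (SE), with a 95% interval of 0.78 to 1.59 (limma adjusted p = 0.00211). It exceeded the differences of 93.8% of the tested probe sets. The smallest gap between a ced1 array and a WT array was 1.02 on the log2 scale, against 0.25 between the WT arrays and 0.08 between the ced1 arrays.

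HTB1 (AT1G07790, chromosome 1) had signals of 574.6 and 612.2 in WT and of 1200.8 and 1168.3 in ced1. Here too the arrays of each genotype lay close together, and the ced1 arrays were the higher ones. WT had a mean of 593.4 ± 26.6 (SD, n = 2) and ced1 of 1184.6 ± 23, which is a log2 difference of 0.98 ± 0.14 (95% interval 0.65 to 1.31, limma adjusted p = 0.00198). H2B genes are much alike in their coding sequence, and the probe sequences were not used here, so a contribution of other H2B transcripts to this signal was not tested.

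UBC19 (AT3G20060, chromosome 3) had signals of 1992.5 and 1490.3 in WT and of 1123.4 and 1133 in ced1. The WT arrays lay as far apart, by 0.42 on the log2 scale, as the lower of them lay from the nearer ced1 array, at 0.39. WT had a mean of 1741 ± 355 (SD, n = 2) and ced1 of 1128 ± 6.79, which is a log2 difference of -0.60 ± 0.17 (95% interval -1.01 to -0.20, limma adjusted p = 0.0263). Without ced1 array 1 the difference was -0.60 and without ced1 array 2 it was -0.61, and neither passed (limma adjusted p = 0.154 and 0.153). Without WT array 1, the array with the highest UBC19 signal, it was -0.40 and still called. With 2 arrays each, the smallest p that an exact two-sided permutation test can give is 0.333, so all 3 calls depend on limma's pooling of the spread over many probe sets.

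**Figure D1:**
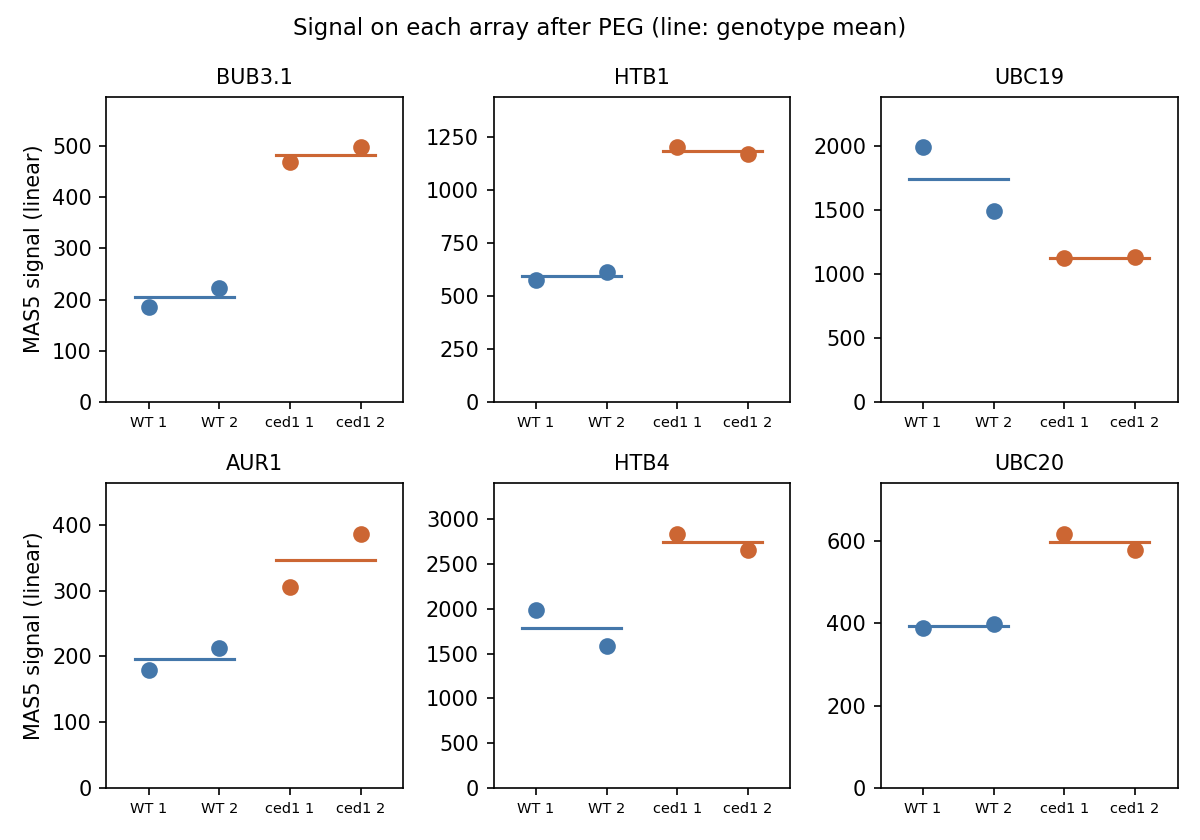
MAS5 signal on a linear axis from 0 for each of the 4 arrays (points) with the genotype mean (line). The upper row shows BUB3.1, HTB1 and UBC19, and the lower row AUR1, HTB4 and UBC20. AUR1 is a kinase of the spindle list and not a homologue of BUB3.1. BUB3.1 and HTB1 sit at 468.8 to 497.9 and 1168.3 to 1200.8 in ced1, above WT, while UBC19 sits at 1123.4 to 1133, below WT and below a wide gap between the WT arrays.

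**Figure D2:**
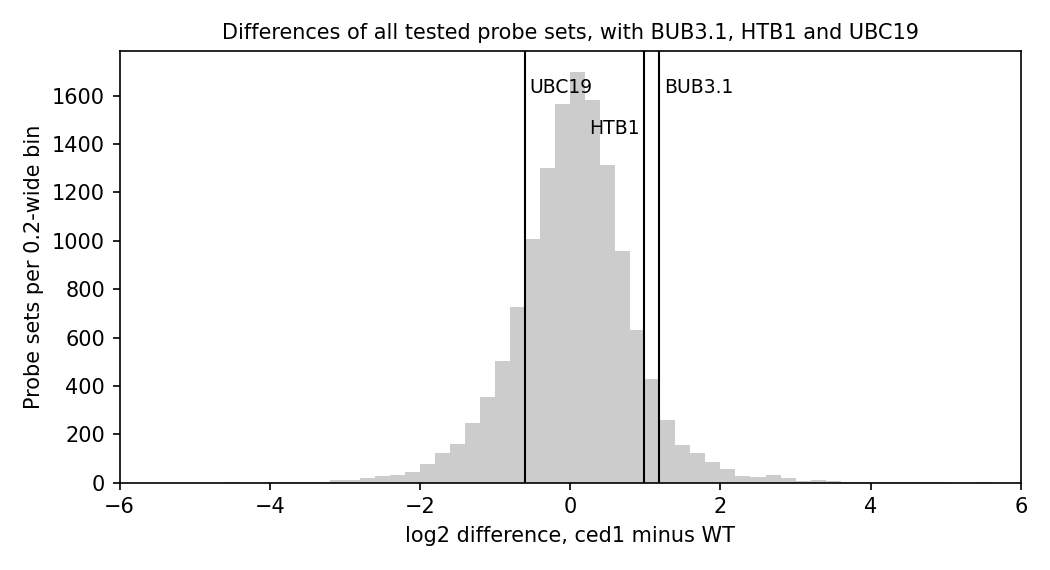
Number of tested probe sets (vertical axis) by log2 difference, ced1 minus WT (horizontal axis), over all 13648 tested probe sets. BUB3.1 at 1.19 and HTB1 at 0.98 lie in the right flank and UBC19 at -0.60 in the left one.

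The array-wide figures bear on all of these values. Median signals were 156.3 and 173.3 on the WT arrays and 186.4 to 187.5 on the ced1 arrays. Trimmed means, which leave out extreme signals, were nearly equal, at 495.7 and 495.3 in WT and 494.4 and 494.9 in ced1. Log2 signals correlated across probe sets at 0.970 between the WT arrays and 0.989 between the ced1 arrays. Markers of organs were read from short lists. The 2 green-leaf genes with a probe set, LHCB4.2 and PSAN of 5 entries, were both called higher in ced1, as were 23.2% of all tested probe sets. Their summed signal ran from 8737.5 to 14482.8 in WT and from 30231.5 to 30834.8 in ced1. The spread in WT came from LHCB4.2, at 2431.5 and 8395.7, while PSAN was at 6306 and 6087.1. The 3 root genes with a probe set, of 4 entries, summed to 9693.5 and 9787.6 in WT and 6064.4 to 6535.7 in ced1, nearly all of it from PYK10, which was called lower at -0.64 ± 0.11 (limma adjusted p = 0.00442) but not without ced1 array 2, at -0.59 (limma adjusted p = 0.0725). The root gene EXPA18 was not called, at -0.06 ± 0.23, and EXPA7 was under the filter. For both, the signals of the genotypes overlapped. Of 10 meristem markers 1 had a probe set, CLV3, the peptide gene of shoot stem cells, with signals of 2.2 to 4.7 on the 4 arrays, far under the level of the filter. The part of organ proportions in the differences of BUB3.1, HTB1 and UBC19 was not tested. In whole seedlings, more dividing cells and more RNA per dividing cell cannot be told apart.

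Around BUB3.1, the list of spindle checkpoint genes and Aurora kinases holds 11 entries, of which 7 have a probe set of their own and 5 passed the filter. Of these 5, 3 were called higher and none lower, against 23.2% and 19.2% of all tested probe sets. Their median log2 difference was 0.71 against 0.07 over all tested probe sets. Both the count and the median include BUB3.1 itself, which was chosen with earlier results known. Of the other tested genes, AUR1 and AUR2 were called, while AT1G69400, at 0.00, and AUR3, at -0.25, were not. AUR1 and AUR2, kinases that act at the spindle and the forming cell plate, were higher by 0.77 ± 0.20 and 0.71 ± 0.20 (limma adjusted p = 0.0187 and 0.0236). AUR1 signals were 179.2 and 213.1 in WT against 305.8 and 386.5 in ced1. AUR2 signals were 197.7 and 160.1 in WT against 326.8 and 279.6 in ced1. AUR2 was not called with no filter, with equal array medians or with quantile normalization (limma adjusted p = 0.0555, 0.0733 and 0.0504). AUR3, the kinase of centromeres, was not called, at -0.25 ± 0.22 with a 95% interval of -0.77 to 0.27. Without ced1 array 1 or without ced1 array 2, BUB3.1 was the 1 gene of the list still called.

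The relatives of BUB3.1 gave little to set beside it. BUB3.2, a close homologue, had signals of 27.3 and 64.6 in WT and of 101.7 and 59.2 in ced1, under the filter, and its groups overlapped. AT1G69400, a paralogue entry of the list without a symbol in the gene table, had signals of 121.8 and 126.4 in WT and 131 and 118 in ced1, with a difference of 0.00 ± 0.21 (95% interval -0.50 to 0.51). Its sign turned negative with equal array medians, at -0.16, and with quantile normalization, at -0.17. BUBR1, a kinase-like partner of BUB3 in the checkpoint, was also under the filter. Its signals were 28.2 and 11.8 in WT and 74.4 and 88.7 in ced1, with both ced1 arrays above both WT arrays at levels too low for a fold to be given.

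The E2-C pair went opposite ways. UBC20 had signals of 388.4 and 398.9 in WT and of 618.5 and 579 in ced1, a log2 difference of 0.58 ± 0.15 (95% interval 0.23 to 0.94, limma adjusted p = 0.0184), with both ced1 arrays above both WT arrays. It was not called with equal array medians, at 0.41, nor without ced1 array 1, at 0.54, nor without ced1 array 2, at 0.63. On each array the log2 signal of UBC19 minus that of UBC20 can be formed, and only its change between arrays has a meaning, since signals of different probe sets are not on a common scale. It was 2.31 and 1.86 on the WT arrays and 0.84 and 0.95 on the ced1 arrays. It was thus 1.19 ± 0.23 (SE) lower in ced1, without overlap, with an exact two-sided permutation p of 0.333, the smallest that 4 arrays allow. A factor that multiplies all signals of an array leaves this quantity nearly unchanged.

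Of the 18 entries for the APC/C and its E2 enzymes, 4 have a probe set and 3 were tested. Beside UBC19 and UBC20 the tested gene was HBT (HOBBIT), a CDC27-type subunit of the complex, at 0.16 ± 0.18 (95% interval -0.27 to 0.60), with overlapping signals of 304.4 and 399.6 in WT and 407 and 378.3 in ced1. CDC27a, the other gene of this subunit type, had signals of 44.6 to 93.2 and was under the filter. The levels of the cyclins and cyclin-dependent kinases, which the APC/C and its partners act on, are not known here: of 29 entries, 0 have a single-gene probe set.

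UBC19 was also read against the whole ubiquitin E2 family, of whose 35 named genes 13 have a probe set and 12 were tested. Of the 12, 1 was called higher (UBC20) and 3 lower (UBC32, UBC19 and UBC30), 8 were not called, and the median was -0.13. Over all tested probe sets 23.2% were called higher and 19.2% lower. The lower count is near its share and the higher count is below its share. With 12 genes, neither is read as a result about the family. UBC32, a stress-induced E2 of the endoplasmic reticulum, differed the most, from 6277.8 and 6257.7 in WT to 2683.3 and 2169.1 in ced1, by -1.37 ± 0.14 (limma adjusted p = 0.000593). UBC30 differed by -0.40 ± 0.13 (limma adjusted p = 0.0415) and was not called with no filter, with quantile normalization or with no intensity trend. PEX4, the E2 of peroxisome import, was at -0.52 ± 0.19 and not called (limma adjusted p = 0.0597). Without ced1 array 1 or without ced1 array 2 the lower calls fell to 1, UBC32.

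**Figure D3:**
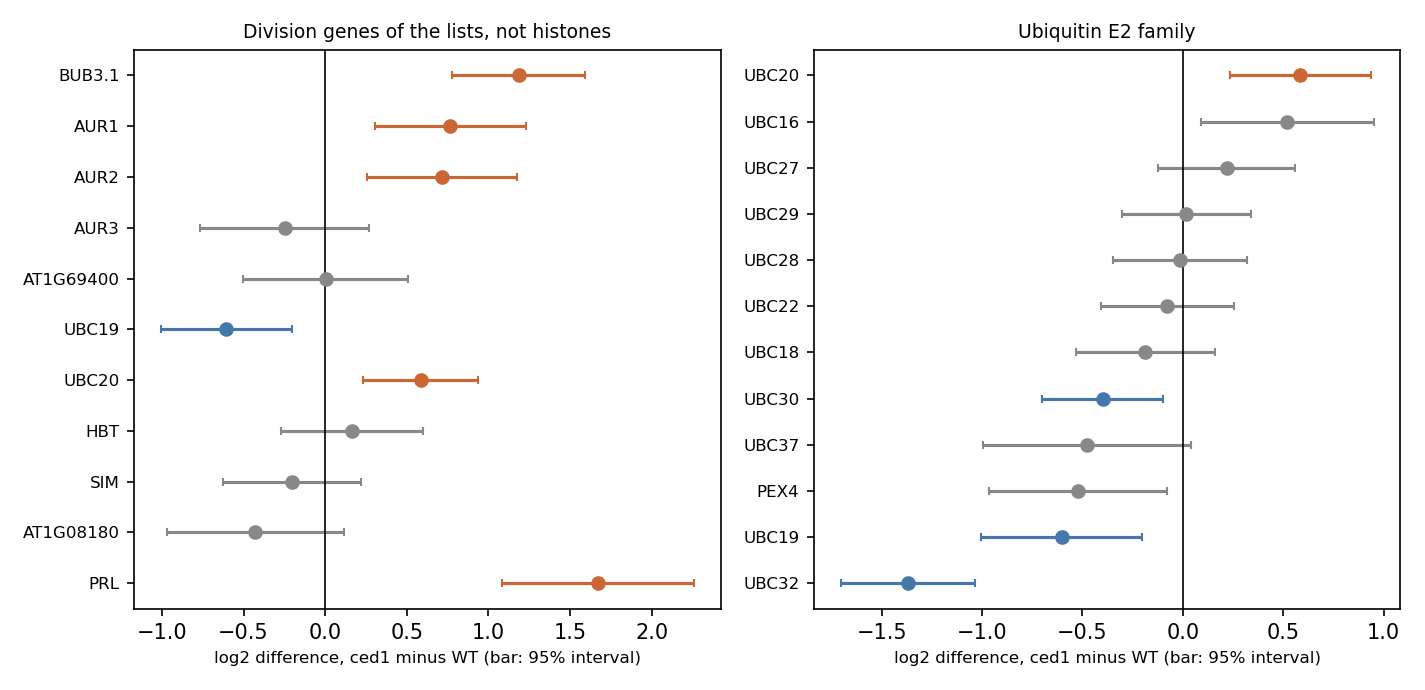
Log2 difference, ced1 minus WT (horizontal axis), with its 95% interval, for the tested division genes that are not histones (left) and the tested ubiquitin E2 genes (right). Orange is called higher, blue called lower and grey not called. BUB3.1 at 1.19 and PRL at 1.67 stand highest on the left, and UBC20 at 0.58 and UBC19 at -0.60 lie on opposite sides of 0 in both panels.

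HTB1 belongs to a core histone list of 40 entries. Single-gene probe sets exist for 10 of them, 7 passed the filter, and all 7 had been entered as H2B genes. HTB1, HTB4 and HTB2 were called higher, none was called lower, 4 were not called, and the median was 0.41. The count and the median include HTB1 itself. Over all tested probe sets 23.2% were called higher, with a median of 0.07. HTB4 had signals of 1985.8 and 1588.7 in WT and of 2839.8 and 2661.8 in ced1, and differed by 0.63 ± 0.15 (limma adjusted p = 0.0152). HTB2 had 588.8 and 535.9 in WT against 715.9 and 936.4 in ced1, a difference of 0.53 ± 0.18 (limma adjusted p = 0.0466) that was not called with no filter or with no intensity trend. HTB1 showed the largest of the 7 differences in the setting reported here. Within arrays the log2 signal of HTB1 minus that of HTB2 changed by 0.45 ± 0.24 from WT to ced1. Its 2 ced1 values of 0.73 and 0.31 lay above the WT values of -0.03 and 0.19 (exact two-sided permutation p = 0.333, the smallest possible).

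Of the 4 H2B-list genes that were not called, 3 had a positive difference and 1 a negative one. HTB11 was at 0.40 ± 0.16 (95% interval 0.02 to 0.78, limma adjusted p = 0.0858), and without WT array 1 it was called, at 0.57. AT2G28720 was at 0.41 ± 0.19, and without WT array 1 it was called, at 0.56. AT2G37470 was at 0.04 ± 0.15 and AT3G09480 at -0.16 ± 0.18. The number of H2B-list genes called higher was 5 without WT array 1, and 1, HTB1, without ced1 array 1, without ced1 array 2 or with equal array medians. HTB1 was called in each of the 12 alternative settings. The other two H2B entries with a probe set, AT5G02570 and AT1G08170, were under the filter, with overlapping signals of 45.6 to 90.7 and of 9.3 to 43.8 over the 4 arrays.

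No H3 or H4 entry of the list had a single-gene probe set that passed the filter, and the H2A entries had no probe set of either kind. H3 and H4 were therefore read through probe sets that the annotation gives to several genes together. They were added to the account after the values had been seen and are not tied to a single gene. The probe sets of a class are given to the same genes, so their calls may not be separate observations. The gene table calls 5 of those genes histone 3.1, the H3 form that is deposited behind the replication fork, and all 5 probe sets shared by them were called higher in ced1, as were 23.2% of all tested probe sets. Their differences ran from 0.72 to 1.88 with a median of 1.15. The highest of them had signals of 255.7 and 294.4 in WT and of 1068.4 and 1041.4 in ced1, a difference of 1.88 ± 0.15 (limma adjusted p = 0.000288). Without ced1 array 1, 3 of the 5 were called.

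For histone 3.3, the form deposited outside replication, 3 probe sets shared by 3 genes were tested, and 1 was called higher (against the same 23.2%), at 0.83 ± 0.11 (limma adjusted p = 0.00164). The other two were at 0.04 ± 0.13 and 0.08 ± 0.11, and both turned negative with equal array medians and with quantile normalization. Averaged over probe sets, the log2 signal of the 3.1 class was 9.37 and 9.53 in WT and 10.75 and 10.60 in ced1, a change of 1.22. That of the 3.3 class was 12.56 and 12.48 in WT and 12.82 and 12.84 in ced1, a change of 0.31. The difference between these changes was not tested. For H4, 3 of 5 shared probe sets were called higher, against 23.2% of all tested probe sets, with differences of 0.26 to 1.31 and a median of 0.47 over the 5. The H4 count was 5 without WT array 1, and 1 without ced1 array 1, without ced1 array 2 or with equal array medians. HTR12, the centromeric H3, had signals of 66 and 78.3 in WT and 132.1 and 116.7 in ced1 and was under the filter.

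**Figure D4:**
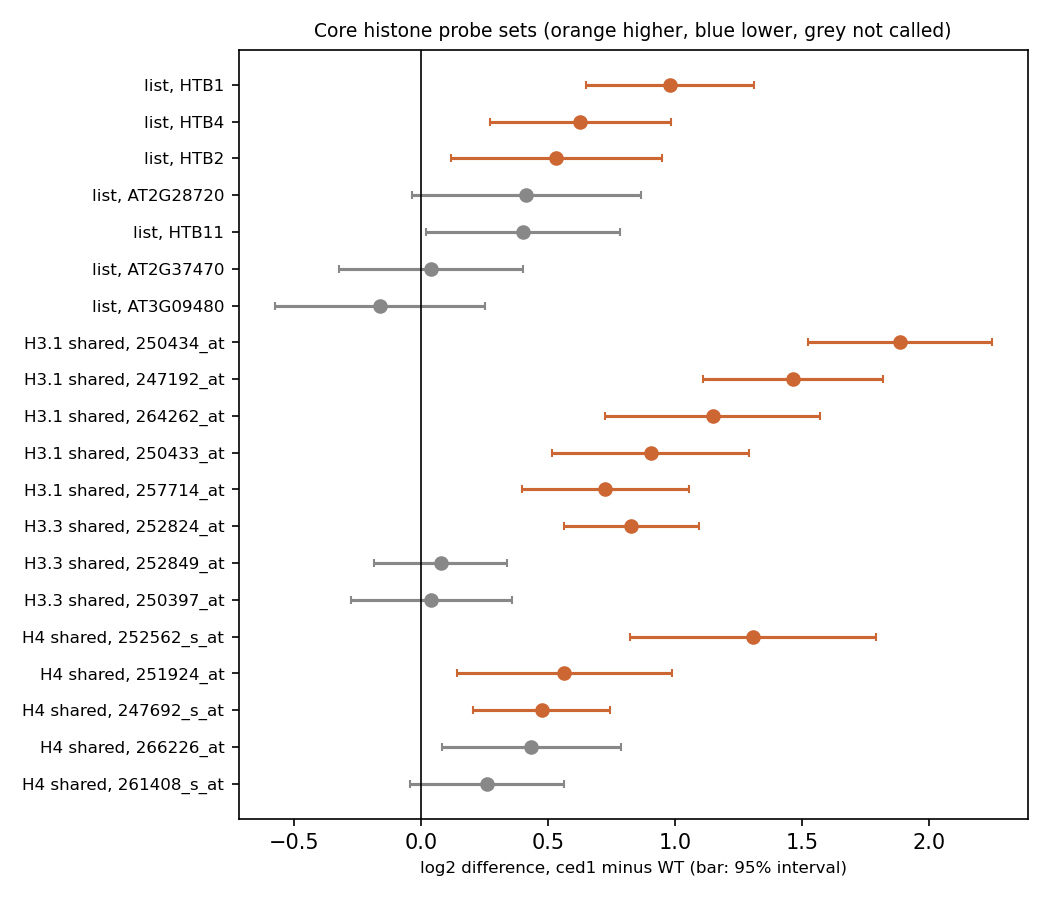
Log2 difference, ced1 minus WT (horizontal axis), with its 95% interval, for the 7 tested genes of the core histone list and the 13 tested probe sets shared by H3.1, H3.3 or H4 genes. Orange is called higher and grey not called. HTB1 at 0.98 leads the listed genes, the H3.1 probe sets run from 0.72 to 1.88, and 2 of the 3 H3.3 probe sets lie near 0.

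Further division genes were few on the annotated part of the array. PRL (PROLIFERA), the MCM7 subunit of the replicative helicase, was the 1 gene of 18 replication entries with a probe set. Its signals were 162 and 279.9 in WT and 754.3 and 678.2 in ced1, a difference of 1.67 ± 0.25 (limma adjusted p = 0.00233). SIM (SIAMESE), an inhibitor of cyclin-dependent kinases that promotes endoreduplication, was not called, at -0.20 ± 0.18 (95% interval -0.62 to 0.22). The other tested inhibitor entry, AT1G08180, was at -0.43 ± 0.23 and not called either. ATSMC2, a condensin subunit gene, was under the filter at 67.9 to 109. The E2F, RBR and MYB3R regulators, 9 entries, have 0 single-gene probe sets. Over all 8 division lists, leaving out BUB3.1, HTB1 and UBC19, 15 genes were tested of 145 entries. Of these 6 were called higher, 0 lower and 9 not, with a median of 0.40, where 23.2% of all tested probe sets were called higher and 19.2% lower. The 6 were PRL, AUR1, AUR2, UBC20, HTB4 and HTB2, and all but PRL lost their call without ced1 array 1 and again without ced1 array 2. With equal array medians, PRL and AUR1 were still called.

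The genes whose profile over the 4 arrays was most like that of each gene were found by the root-mean-square distance between log2 signals centred on their own mean, among 7239 other tested single-gene probe sets. For BUB3.1 they were AT3G53470, AT1G18060 and AT5G22320, at distances of 0.0062 to 0.019. For HTB1 they were AT2G07741, AT5G15950 and AT2G20690, at 0.011 to 0.021, and for UBC19 AT5G58920, AT5G64880 and AT4G16190, at 0.017 to 0.031. With 4 arrays such closeness is a description of these arrays alone.

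**Figure D5:**
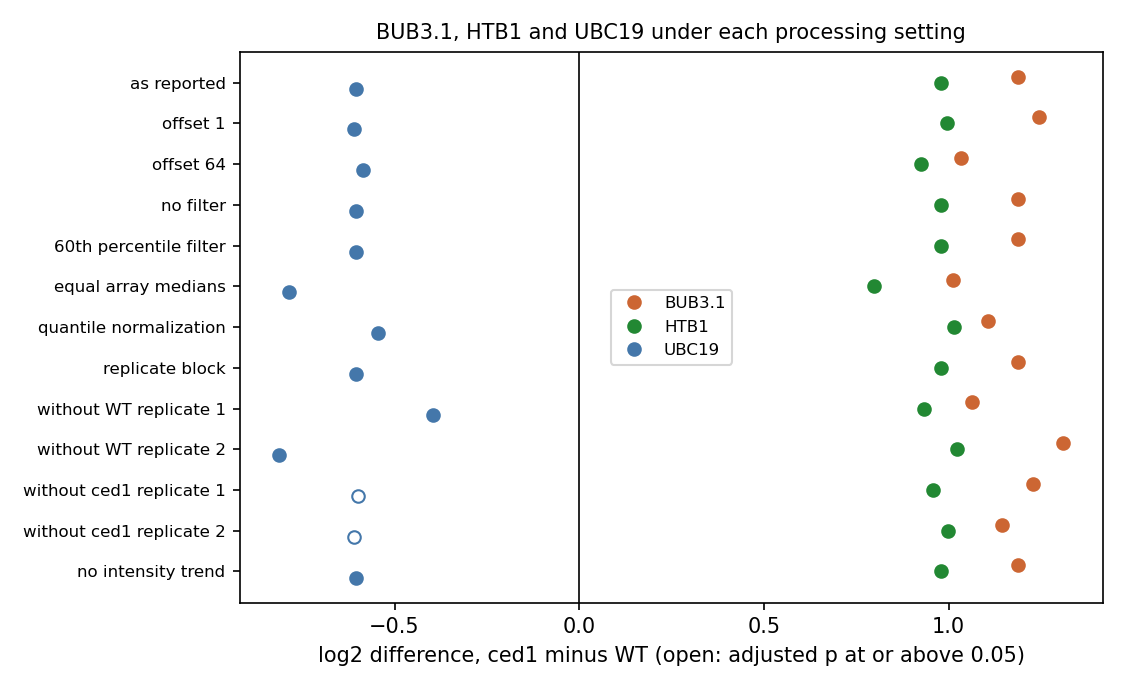
Log2 difference, ced1 minus WT (horizontal axis), of BUB3.1, HTB1 and UBC19 in the setting reported and in 12 alternatives (rows). Filled points are called and open points are not. BUB3.1 lies between 1.01 and 1.31 and HTB1 between 0.80 and 1.02, all filled, while UBC19 lies between -0.81 and -0.40 and is open without either ced1 array.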

How the data were processed

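The deposited intensity values are 1 linear MAS5 signal per probe set and array, which the authors made with MAS5, as the submitters' processing notes say. MAS5 scales each array. Its version is not given in the sources used here. Signals of 22746 probe sets were taken as log2(signal + 16) without further scaling, and 9098 probe sets under the 40th percentile of mean log2 signal were left out. The remaining 13648 were fitted across genotype with limma 3.58.1 in R 4.3.3 (lmFit, eBayes with an intensity trend), with Benjamini-Hochberg adjustment and a threshold of 0.05. The procedure was tested on simulated data with planted log2 differences of 1 and 2 in either direction. Smaller differences, such as that of UBC19, were not covered by that test. The number of arrays limits precision, as each probe set has 2 residual degrees of freedom, and folds on this scale understate changes of low signals. The labels call the arrays biological replicates without saying how the seedlings were grown apart, so p-values measure the spread between these samples.

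Genes were named through the platform annotation and the TAIR10.1 gene table. It gives 13513 probe sets 1 gene and 503 several, and the other 8730 are unnamed here. No coordinates or sequences are printed, since the values name no genome build and no sequence table was used. BUB3.1, HTB1 and UBC19 and all lists were chosen with earlier results of these data known. Lists were written from textbook roles and matched by locus, and for each gene the probe set of highest mean signal was read. Named were all probe sets and relatives of the 3 genes, up to 4 tested genes of largest absolute difference per list, and the 3 most alike profiles per gene. UBC30, the shared histone probe sets, genes under the filter other than BUB3.2 and the H2B entries, and the genes of the closing section fall outside this rule or were named after their values were seen. Same-numbered arrays of the genotypes were checked for pairing, and 12 alternatives were run on the fitted differences and counts. They were not run on the within-array ratios, the histone class averages, the pooled division count, the marker sums or the neighbouring genes, and the 60th percentile filter leaves out genes of lower signal.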

Additional observations from a re-analysis of the deposited data

How the results depend on the processing

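In the 12 alternatives BUB3.1 stayed called higher (1.01 to 1.31, limma adjusted p between 2.33e-05 and 0.0290), and HTB1 likewise (0.80 to 1.02, limma adjusted p between 5.29e-05 and 0.0318). UBC19 stayed lower, at -0.81 to -0.40 without each array in turn, and lost its call only without either ced1 array (limma adjusted p between 0.000182 and 0.154 over all alternatives). The replicate number is not said to mark a shared batch, and same-numbered arrays correlated at 0.0912 in their deviations. Whether same-numbered arrays share a batch cannot be told from 2 arrays per genotype. With a replicate block, BUB3.1, HTB1 and UBC19 kept their calls at 1.19, 0.98 and -0.60, and 3608 probe sets were higher and 2951 lower. Where a genotype is left with 1 array, its spread is taken from the other. Without each array in turn, probe sets higher ranged from 1200 to 4535 and lower from 1329 to 3333. In the same settings the core histone list had a median of 0.26 to 0.57 with 1 to 5 higher, and the spindle list 0.57 to 0.65 with 1 to 3 higher. The APC/C list had a median of -0.025 to 0.35, the E2 family 1 to 4 lower, H3.1 3 to 5 higher and H4 1 to 5 higher.

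Equal array medians gave list medians of 0.24 (core histones, 1 higher), 0.54 (spindle), -0.014 (APC/C), -0.48 (CDK inhibitors) and -0.31 (E2 family), and 1 H4 probe set higher. This setting lowers all differences by its construction. The 60th percentile filter, which tests fewer genes, gave 0.53 for core histones and 1.19 for the spindle list, with 1 gene higher. Offset 64 gave 0.60 for the spindle list. Quantile normalization gave 0.58 for the spindle list and 0.096 for the APC/C list, and no filter gave 0.34 for the latter. Signs turned for some uncalled genes. HBT was at -0.014 with equal medians and -0.025 without WT array 1. AT2G37470 was at -0.14 with equal medians and between -0.092 and 0.17 without each array in turn. AT1G69400 was at -0.16 and -0.17 with equal medians and quantile normalization, at -0.021 without WT array 1, and between -0.064 and 0.070 without each array in turn. The low H3.3 probe sets were at -0.14 and -0.11 with equal medians and -0.048 and -0.022 with quantile normalization. The first of them lay between -0.099 and 0.18 without each array in turn, with -0.0079 without ced1 array 2. The root marker EXPA18 lay between -0.27 and 0.15. The causes were not tested beyond what each setting's construction shows.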

Other observations

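Outside the lists, the gene table was searched for the words histone, topoisomerase, DNA polymerase and replication, after the values had been seen, which gave 8 further genes with a probe set. HON4, which the table calls a histone H1, had signals of 391.9 and 487 in WT and of 764 and 875.1 in ced1, a difference of 0.88 ± 0.17 (limma adjusted p = 0.00659) that was not called without ced1 array 2, at 0.78 (limma adjusted p = 0.0883). TOPII, the topoisomerase II that untangles replicated chromosomes, had 167.3 and 233 in WT and 296.7 and 351.4 in ced1, a difference of 0.67 ± 0.21 (limma adjusted p = 0.0410). TOPII lost its call in several settings, among them equal array medians (0.49). The drought-induced linker histone gene HIS1-3 went the other way, from 992.9 and 594.6 in WT to 230.4 and 201.8 in ced1. It was called lower, at -1.76 ± 0.25 (limma adjusted p = 0.00188), and lay between -2.12 and -1.40 in the alternatives. The deacetylase gene HDA15 was at -0.22 ± 0.16 and not called. HDA7, MGH3 (a histone H3 of male gametes), POLH and TOP3A were under the filter.

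Of the 18 protein-coding genes that lie up to 3 places before or after BUB3.1, HTB1 and UBC19 in the gene table, 5 have a single-gene probe set and 2 were tested. TTN9, directly after UBC19, was higher in ced1 by 0.92 ± 0.25 (limma adjusted p = 0.0242), opposite in sign to UBC19. AT1G07750, the third before HTB1, was at 0.04 ± 0.16. AT1G07820, the third after HTB1, is among the genes of the 5 shared H4 probe sets.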
